A study of Rattus norvegicus with 2 samples.

Results

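The osteoclast genes examined here are 10 genes of enzymes, acid transport, receptors, cell fusion and transcription, namely Acp5, Ctsk, Tcirg1, Clcn7, Calcr, Oscar, Tnfrsf11a, Dcstamp, Ocstamp and Nfatc1. They were measured in dorsal root ganglia (DRGs), which hold the cell bodies of sensory neurons (SNs). A probe set, a group of short probes against 1 transcript that is summed up as 1 signal, was taken where the probe-to-gene table gives it a listed gene as its only symbol. This found 9 probe sets for 7 of the 10 genes, among 14217 genes on the array. Oscar, a collagen receptor that aids osteoclast formation, and Dcstamp and Ocstamp, whose membrane proteins are needed for precursors to fuse, were matched to no probe set and have no value. The set was chosen by function and by the ratios of Acp5 and Ctsk, which were known to be higher on the tumor side, so every ratio below is a description and supports nothing by itself.

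Both samples came from female Sprague-Dawley rats, 4 weeks old, with a tumor in the right tibia, grown from 100000 inoculated cells of IP-B12, a pulmonary carcinoma line of the rat that dissolves bone. The tumor side was 1 array of DRGs from the side of the inoculated right leg. The control side was 1 array of DRGs from the side of the left leg, which had received no cells. Both were collected 14 days after inoculation. The number of rats and a sham inoculation of the left leg are not given in the sources used here, so the tumor and the procedure cannot be told apart, and the control side also belonged to tumor-bearing animals. Replicate error is unknown with 1 array on each side, so nothing was tested and each value describes these 2 arrays only.

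Osteoclasts are the giant cells that resorb bone. They form when precursors of the monocyte and macrophage lineage receive M-CSF and RANKL, which acts through its receptor RANK, and then fuse. The transcription factor NFATc1 switches on the resorption program, and the mature cell seals itself onto bone, pumps protons and chloride into the space beneath it and releases enzymes that degrade the exposed collagen. Osteoclasts lie on bone, not in ganglia. Macrophages and other cells share several of these genes, so macrophage genes serve as the contrast below.

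The promoters of Acp5, Ctsk and Clcn7 are shown because each holds the letters of an M-box, to which MITF and the related factors TFEB and TFE3 can bind. MITF acts in osteoclasts and macrophages. Capitals mark TCATGTG or its reverse complement CACATGA. Each sequence runs 5′ to 3′ on the strand of the gene from 250 bases before an annotated start site to 50 bases from it on, as given by RefSeq for the build GRCr8. The Acp5 window is chr8:28943880-28944179 on the minus strand, 1 of 2 annotated starts of that gene. The Ctsk window is chr2:185747298-185747597 on the plus strand and the Clcn7 window is chr10:14656011-14656310 on the plus strand.
Acp5: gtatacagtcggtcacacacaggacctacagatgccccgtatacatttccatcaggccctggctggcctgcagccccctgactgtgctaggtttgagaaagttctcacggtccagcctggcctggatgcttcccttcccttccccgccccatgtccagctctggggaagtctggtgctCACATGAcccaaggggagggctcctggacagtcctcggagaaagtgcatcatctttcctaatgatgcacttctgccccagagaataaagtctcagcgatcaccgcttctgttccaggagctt
Ctsk: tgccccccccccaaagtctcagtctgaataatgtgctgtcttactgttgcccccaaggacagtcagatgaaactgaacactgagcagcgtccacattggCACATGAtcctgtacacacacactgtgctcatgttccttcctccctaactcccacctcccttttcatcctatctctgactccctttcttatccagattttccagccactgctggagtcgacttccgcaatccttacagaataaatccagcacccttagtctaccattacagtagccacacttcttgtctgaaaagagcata
Clcn7: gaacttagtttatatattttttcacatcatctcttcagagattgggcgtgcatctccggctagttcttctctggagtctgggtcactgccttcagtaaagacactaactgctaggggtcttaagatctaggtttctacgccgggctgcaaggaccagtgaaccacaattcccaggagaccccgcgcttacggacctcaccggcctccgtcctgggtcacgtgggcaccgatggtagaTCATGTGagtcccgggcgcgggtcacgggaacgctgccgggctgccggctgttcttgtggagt

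The first base of the match lay 72 bases before the start in Acp5, 151 bases before it in Ctsk and 13 bases before it in Clcn7. These 3 genes were the ones with an M-box among the 7 listed genes that have a window in the table, which hold 8 windows in all, while 3.56% of all 33469 promoter windows of the same length held it. Nfatc1, Tnfrsf11a and Dcstamp have no window there. The related letters TCACGTG were found in Clcn7 only, against 3.20% of all windows. The core of NFAT sites, GGAAA, was found in Acp5, Ctsk, Oscar and Ocstamp, against 62.7% of all windows. The PU.1 core, GAGGAA, which can overlap an NFAT core, was found in Ctsk and Oscar, against 27.6%, and the AP-1 letters TGANTCA were found in none of the 7, against 7.33%. All searches covered both strands, and the motifs were picked after the sequences had been seen. A match of letters is not a binding site. The window of the other Acp5 start holds no M-box. The M-box stood in Acp5 and Ctsk, which were brighter on the tumor side, and also in Clcn7, which differed little.

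DRGs were compared through MAS 5.0 signals, on a linear scale, as the authors deposited them. The median signal was 72.7 on the tumor-side array and 69.0 on the control-side array. A probe set was counted as above the signal rule where its brighter signal was no lower than the median of the array it came from, which held for 15914 of 31042 probe sets. Ratios are log2 values with the control side as the divisor, so that 1 is a fold of 2, and the median log2 ratio above the rule was 0.08. The ratio of 3′ to 5′ signal, a measure of RNA integrity, was 9.22 for actin and 1.23 for GAPDH on the tumor side, and 8.79 and 1.20 on the control side. Ganglion markers were bright. Prph, the gene of the SN filament peripherin, had 8852 on the tumor side and 8896 on the control side, and the 14 SN genes measured had a median log2 ratio of -0.04, while 9 genes of satellite glia and Schwann cells had 0.10.

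Acp5 and Ctsk, the genes of resorption enzymes in the set, were higher on the tumor side, as was known when they were chosen. Acp5 encodes tartrate-resistant acid phosphatase (TRAP), the enzyme by which osteoclasts are stained in bone. Its single probe set, 1367942_at, had a signal of 166 on the tumor side and 82.3 on the control side, a difference of 83.4 signal units and 2.01 times as much (log2 ratio 1.01). Ctsk encodes cathepsin K, the protease that cuts collagen in the resorption space. Its single probe set, 1369947_at, had 564 on the tumor side and 346 on the control side, 1.63 times as much (log2 ratio 0.70). Both genes stood above the median of either array. In whole ganglia, more cells of a type and more RNA per cell cannot be told apart.

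Acp5 passed a fold of 2 by little, and Ctsk did not reach it. A fold of 2 or more toward the tumor side was found in 0.170% of the probe sets above the signal rule (27 of them), and toward the control side in 0.151% (24 of them). This split was 18 to 30 after quantile normalization, 17 to 33 after centring and 18 to 31 after loess. Of the 4 listed genes above the rule, which were Ctsk, Nfatc1, Acp5 and Tcirg1, 1 reached a fold of 2 upward and none did so downward. At a fold of 1.5, Acp5 and Ctsk were higher and none was lower, against 1.39% and 0.748% of the probe sets. Nothing is read from these counts, since the same ratios chose the set. In all, 24 probe sets above the rule had a ratio as high as that of Acp5, itself included, and 114 as high as that of Ctsk. After quantile normalization, centring on the median, loess or a pseudocount, the log2 ratio of Acp5 was between 0.92 and 0.93, just under a fold of 2. That of Ctsk was between 0.62 and 0.69.

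**Figure D1:**
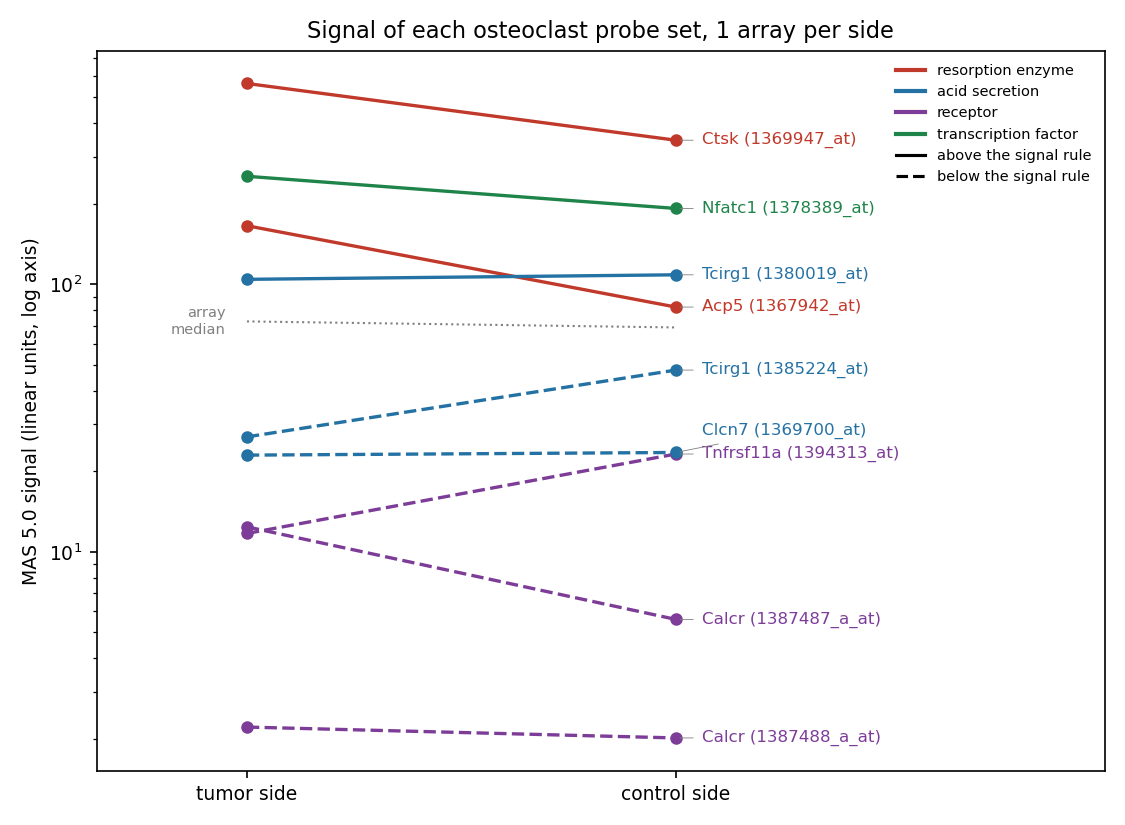
Signal of each of the 9 osteoclast probe sets on the tumor-side array (left) and on the control-side array (right), on a log axis, with lines joining values of 1 probe set, colours for the role of the gene and broken lines for probe sets below the signal rule. The lines of Ctsk (564 and 346), Acp5 (166 and 82.3) and Nfatc1 (254 and 192) are higher at the tumor side, and the brighter Tcirg1 probe set (104 and 109) is nearly level.

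Genes of acid secretion were not brighter on the tumor side. Tcirg1 encodes the a3 subunit of the proton pump (V-ATPase) that osteoclasts place in their ruffled border. Its brighter probe set, 1380019_at, had 104 on the tumor side and 109 on the control side (log2 ratio -0.06). The second, 1385224_at, lay below the rule with 26.9 and 47.8 (log2 ratio -0.83), so both were lower on the tumor side but by unequal amounts, and the mean over both was -0.44. Clcn7 encodes the chloride and proton exchanger that balances the charge of the pump. Its probe set, 1369700_at, was dim and level, with 23.0 on the tumor side and 23.5 on the control side (log2 ratio -0.03).

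The receptors were dim on both arrays. Calcr encodes the receptor of calcitonin, the hormone that stops osteoclasts. One of its probe sets, 1387487_a_at, had 12.4 on the tumor side and 5.59 on the control side (log2 ratio 1.15), and the control-side signal was close to the 5.39 that the brightest of 3 probe sets for a bacterial trp control transcript reached on that array. The other, 1387488_a_at, had 2.21 on the tumor side and 2.02 on the control side, each under the brightest trp probe set of its array, which reached 4.63 on the tumor side. Calcr thus gave 1 higher ratio and 1 level pair of signals at background.

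Tnfrsf11a encodes RANK, without which osteoclasts do not form. Its probe set, 1394313_at, had 11.7 on the tumor side and 23.2 on the control side (log2 ratio -0.99), the opposite direction to Acp5 and Ctsk. The log2 ratio was between -1.07 and -1.05 after quantile normalization, centring or loess, past a fold of 2, and -0.59 with the pseudocount. Below the signal rule such ratios are frequent, as 15.3% of 15128 probe sets reached a fold of 2 upward and 12.5% downward, and at a fold of 1.5 these shares were 24.7% and 19.9%. The spread of log2 ratios between probe sets of 1 gene, an SD that stands in for technical error but also holds differences between transcripts, was 1.40 around the signal of the brighter Calcr probe set and 0.87 around that of Tnfrsf11a. It was 0.66 around Clcn7, 0.23 around Acp5 and 0.13 around Ctsk.

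Nfatc1, the gene of the transcription factor that drives the osteoclast program and that T cells and other cells use as well, had 254 on the tumor side and 192 on the control side with 1378389_at (log2 ratio 0.40). Around this signal the SD between probe sets of 1 gene was 0.18, and 4.93% of the probe sets above the rule had a ratio as high. The median log2 ratio was 0.55 over the 4 listed genes above the rule and 0.40 over all 7 with a probe set, of which 4 lay above the median probe set and 3 below it. The genes thus did not differ in 1 direction. Acp5 and Ctsk, known to be higher when the set was chosen, were higher, so no pattern by function is read from them. The acid transport genes were level or lower, and the receptors were split at signals where ratios scatter widely.

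**Figure D2:**
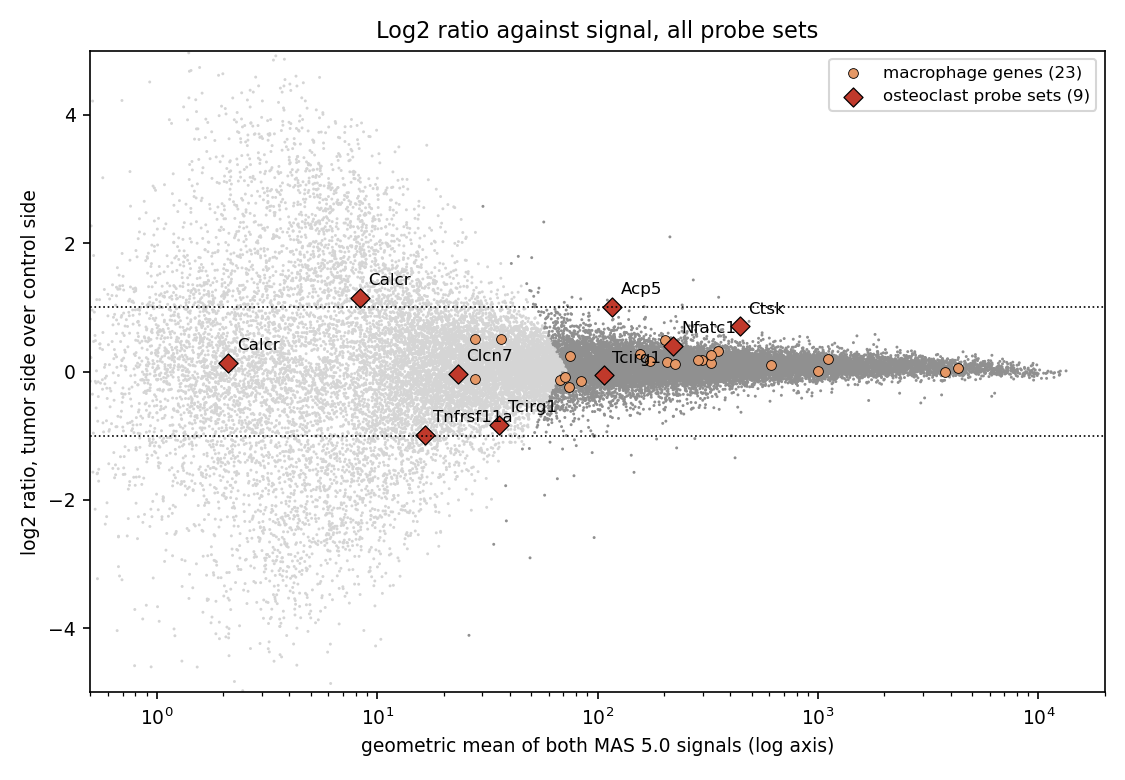
Log2 ratio (tumor over control) on the vertical axis and the geometric mean signal on a horizontal log axis, 1 grey point per probe set (darker above the signal rule), with 9 osteoclast probe sets as red diamonds, 23 macrophage genes as orange circles and dotted lines at a fold of 2. Acp5 (1.01) and Ctsk (0.70) lie at the upper edge of the probe sets of their signal, Calcr and Tnfrsf11a lie where ratios scatter widely, and 123 probe sets fall outside the axes.

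General macrophage expression differed less than Acp5 and Ctsk did, a contrast largely fixed when these 2 genes were chosen by their ratios. Of 25 listed macrophage genes, 23 had a probe set and 20 were above the rule. Mertk had a log2 ratio of 3.71 on its dimmer probe set. On their brightest probe sets, none of the 23 reached a fold of 1.5 in either direction. Of all probe sets above the rule, 1.39% did so upward and 0.748% downward, and below it 24.7% and 19.9%. With so few genes and such low shares above the rule, little is read from this count. The 20 had a median log2 ratio of 0.14, with a range from -0.24 to 0.49, and 13 of them lay above the median probe set. Their summed signal was 14093.8 on the tumor side and 13331.5 on the control side. Acp5 and Ctsk lay above all 20, by 0.87 and 0.56 above their median. Of the 20, 1 was higher than Nfatc1 and 16 were higher than Tcirg1. Below the rule, Cd163 (0.51) and Itgam (0.51) also had a higher log2 ratio than Nfatc1, and Cx3cr1 (-0.11) had a lower one. The median of the listed osteoclast genes was 0.41 above that of the macrophage genes over genes above the rule. It was 0.26 above it over all measured genes, and this difference could not be tested. Acp5 and Ctsk, known to be higher when they were chosen, enter both osteoclast medians, so nothing is read from the difference. Nor is anything read from their place above the 20 macrophage genes. Among the listed genes above the rule, Nfatc1 (0.40) lay above the macrophage median and Tcirg1 (-0.06) below it.

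Single macrophage genes went both ways. Tyrobp, the gene of the adaptor DAP12 that serves receptors of macrophages and osteoclasts, had 238 on the tumor side and 170 on the control side (log2 ratio 0.49). Adgre1, which encodes the macrophage surface protein F4/80, had 393 and 313. Gpnmb, a glycoprotein of macrophages and osteoclasts, had 172 and 142. Cd68, a lysosomal protein of macrophages, had 79.6 on the tumor side and 88.3 on the control side. Laptm5, a lysosomal protein of blood cells, was lower with 68.4 and 80.7 on its brighter probe set (log2 ratio -0.24), while its second probe set had 0.39. Lyz2, the gene of lysozyme, had 4388 and 4214.

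Other lysosomal genes were mostly level between the sides. The 28 measured lysosomal genes were all above the rule and had a median log2 ratio of 0.08. To 2 decimals, this was the same as that of all probe sets above the rule. Of the 28, 1 reached a fold of 1.5 upward, against 1.39% of all probe sets above the rule. Acp2, another lysosomal acid phosphatase, had 587 on the tumor side and 587 on the control side. Of the cathepsins, the protease family of Ctsk, Ctsz had 304 on the tumor side and 242 on the control side (log2 ratio 0.33). Ctsl had 5613 and 4989 (log2 ratio 0.17) and Ctsb had 5805 and 6128 (log2 ratio -0.08). Ctss, listed with the macrophage genes, had 1009 and 1000 (log2 ratio 0.01). The log2 ratio was 0.19 for Ctsh, 0.14 for Ctsc, 0.10 for Ctsd and -0.0009 for Ctsa. The gene past a fold of 1.5 was Atp6v0a2, which encodes the a2 subunit of the proton pump, with 163 and 107 (log2 ratio 0.60) and 0.42 on its second probe set. Its relatives of the same subunit were lower, Atp6v0a1 with 253 and 285, and Tcirg1 as given above.

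Further osteoclast genes were measured to see whether more of the program differed. Of 28 listed, 23 had a probe set and 14 passed the rule. None of the 14 reached a fold of 1.5, against 1.39% of all probe sets above the rule upward and 0.748% downward. With such low shares, little is read from this count. The 14 had a median log2 ratio of 0.12 and a range from -0.12 to 0.38. The largest was Itgav, the integrin chain by which osteoclasts and many other cells hold on to matrix, with 2604 on the tumor side and 1999 on the control side (log2 ratio 0.38), and its 3 probe sets reached down to 0.03. Itgb3, its osteoclast partner, had 139 and 121. Mitf, whose letters were sought in the promoters, had 158 and 125 on its brighter probe set (log2 ratio 0.34) and a log2 ratio of 0.84 on its other one. Slc4a2, the bicarbonate exchanger that keeps the pH of acid-secreting cells, had 164 and 130 (log2 ratio 0.33). Plekhm1, a gene of vesicle transport to the ruffled border, had 117 and 96.8.

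Other partners of resorption were level. Car2, the carbonic anhydrase that supplies protons, had 1943 on the tumor side and 1796 on the control side. Ostm1, the partner protein of Clcn7, had 986 and 1024, and Src, a kinase of the ruffled border, had 105 and 114. Of the 9 below the rule, 1 reached a fold of 2 upward and none downward, against 15.3% and 12.5% of all probe sets below it. The gene past this fold was Fosl2, a Fos family factor. It had 13.5 on the tumor side and 4.02 on the control side, where the signal was at the level of the trp probe sets. Mmp9, the gelatinase of osteoclasts and neutrophils, was dim with 14.3 on the tumor side and 7.48 on the control side. Its other probe set, dimmer still, had a log2 ratio of 3.10. Trem2, a receptor of macrophages and osteoclasts, had 5.62 and 6.02 on its brighter probe set and a log2 ratio of 0.33 on its other one.

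Signals that drive or restrain osteoclast formation were mostly dim. Of 15 listed, 13 had a probe set, and the log2 ratios of the 5 above the rule ranged from -0.17 to 0.31. Csf1r, the M-CSF receptor of macrophages and osteoclast precursors, had 253 on the tumor side and 204 on the control side (log2 ratio 0.31). Its ligands went apart, as Il34 had 192 and 162 (log2 ratio 0.25) and Csf1 had 159 and 178 (log2 ratio -0.17), with up to 0.72 on another of the 4 probe sets of Csf1. Il1b, a cytokine that promotes resorption, had 87.0 and 71.3. Tnfsf11, the gene of RANKL, had 1.63 and 12.3 on its brighter probe set, where the tumor-side signal lay under the brightest trp probe set, and a log2 ratio of 0.11 on its other one. Tnfrsf11b, which encodes the RANKL decoy OPG, had 47.0 and 52.1. At any signal, Sema3a, a repellent of axons that also restrains osteoclasts, reached a fold of 2 upward with 3.31 and 0.95. Tnfsf11 reached it downward, and each had a signal at the level of the trp probe sets. Of all probe sets below the rule, 15.3% reached a fold of 2 upward and 12.5% downward.

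Markers of other tissues differed between the sides together with Acp5 and Ctsk. Of 14 measured osteoblast and osteocyte genes, 8 were above the rule. Of these, 2 reached a fold of 2 upward and none downward, against 0.170% and 0.151% of all probe sets above the rule. The list was chosen with earlier results of these data known, so nothing is read from this count. Mmp13, a collagenase of bone, had 441 on the tumor side and 103 on the control side (log2 ratio 2.10). Bglap, the gene of osteocalcin, had 446 and 166 (log2 ratio 1.43), and Ibsp, the gene of bone sialoprotein, had 193 and 100.2 (log2 ratio 0.95). The 8 had a median log2 ratio of 0.33 and a summed signal of 23621 on the tumor side and 20819 on the control side, most of which came from Spp1, Sparc and Col1a2. Osteocyte markers were dim and split, with 37.6 on the tumor side and 52.3 on the control side for Dmp1, and 15.8 and 8.31 for the brighter of the Sost probe sets.

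Most blood and muscle genes were brighter on the control side. The 3 granulocyte genes above the rule, of 7 measured, were S100a8 with 151 on the tumor side and 345 on the control side, S100a9 with 286 and 572, and Np4 with 90.5 and 223. They had a summed signal of 528 on the tumor side and 1141 on the control side. The 4 granulocyte genes below the rule went both ways. Mmp8 had 16.4 on the tumor side and 4.64 on the control side (log2 ratio 1.82), where it lay under the brightest trp probe set. The log2 ratio was 0.39 for Camp, -0.04 for Cxcr2 and -0.39 for Lcn2. Of all probe sets below the rule, 15.3% reached a fold of 2 upward. All 4 measured erythroid genes were lower on the tumor side, with log2 ratios from -0.60 to -0.36. Of 13 skeletal muscle genes, 11 passed the rule. Of these, 9 differed by a fold of 2 or more toward the control side, against 0.151% of all probe sets above the rule. The blood and muscle lists were also chosen with earlier results known, so nothing is read from their counts. The 11 summed to 3386 on the tumor side and 4064 on the control side. Most of this sum came from Myh1 and Pvalb, which were slightly higher on the tumor side. Myh1 had 1742 on the tumor side and 1583 on the control side (log2 ratio 0.14), and Pvalb had 1200 and 1063 (log2 ratio 0.17). The sum thus says little about the 9 genes past a fold of 2, whose log2 ratios reached down to -4.11. No signal on either array was 0. The part of bone, blood or muscle tissue in the signals of Acp5 and Ctsk was not tested.

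**Figure D3:**
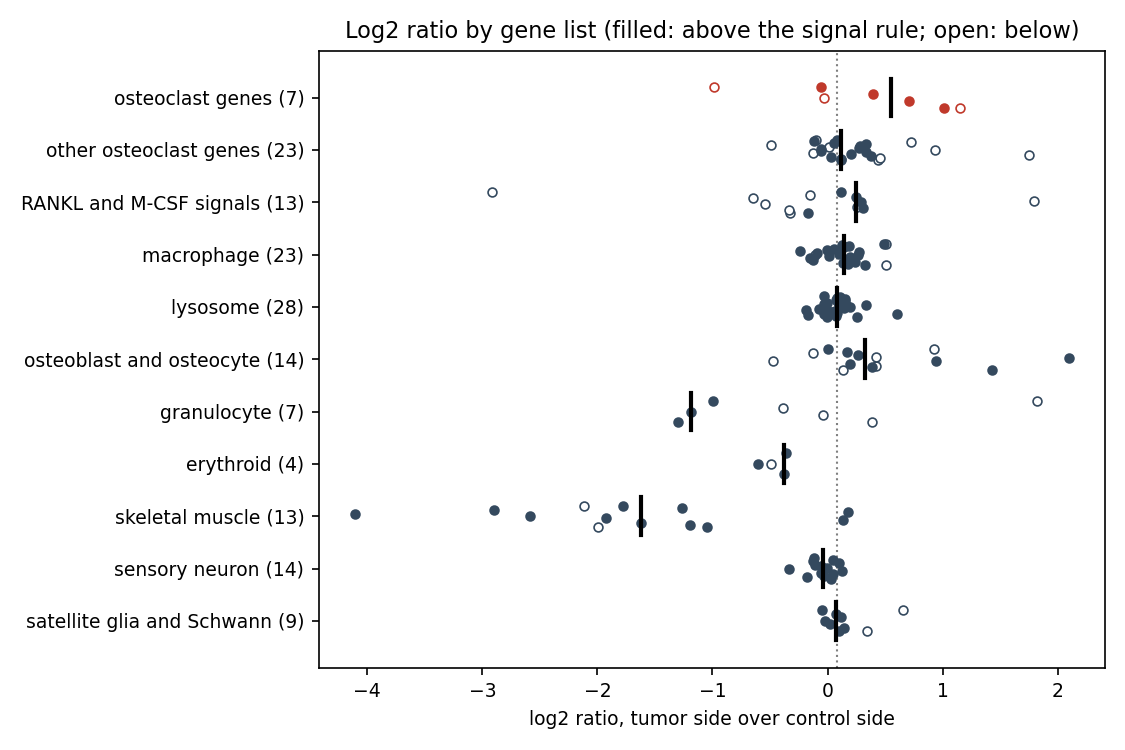
Log2 ratio (tumor over control) for each measured gene, by list, with the number of measured genes in brackets, filled circles above the signal rule, open circles below it and a bar at the median of those above it. Each gene is drawn by its brightest probe set. The osteoclast genes (red) spread from -0.99 to 1.15, while 23 macrophage genes stay between -0.24 and 0.51. The dotted line marks the median of all probe sets above the rule (0.08).

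**Figure D4:**
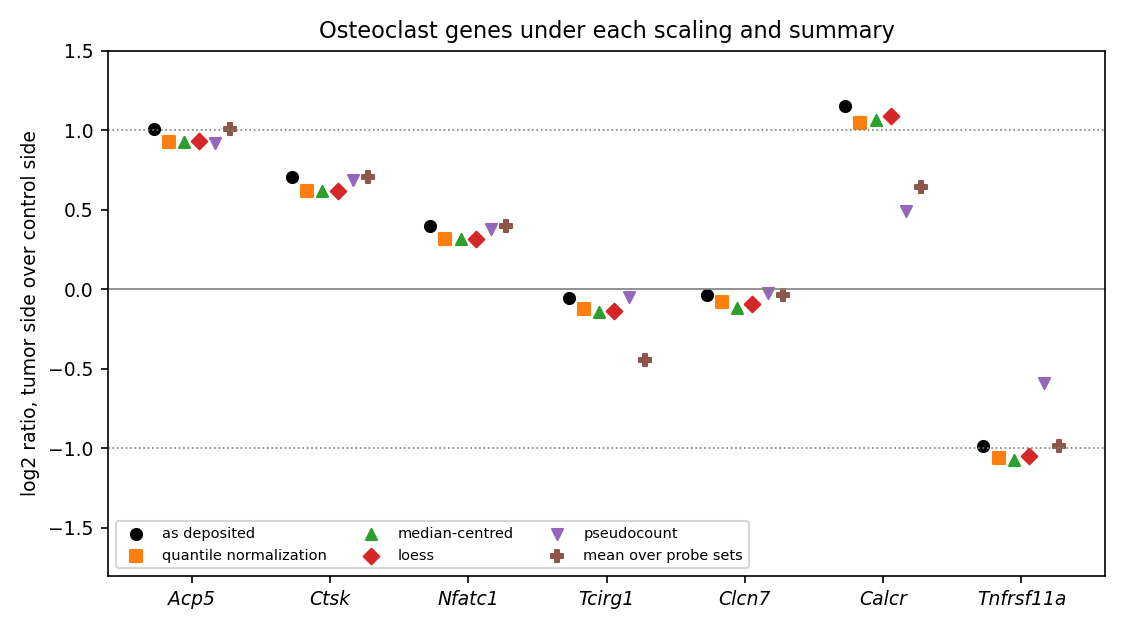
Log2 ratio (tumor over control) for the 7 osteoclast genes with a probe set, from the signals as deposited and under 5 alternatives, with dotted lines at a fold of 2. Acp5 lies just above the upper line as deposited and just below it under 4 of them, and Calcr and Tnfrsf11a, the dim genes, move most with the pseudocount.

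The plot of the alternatives shows that the direction of each of the 7 genes was the same in all of them, though centring takes the same amount from each gene and the pseudocount cannot turn a direction. The order of the 4 genes above the rule, Acp5, Ctsk, Nfatc1 and Tcirg1, was also the same. Neighbours in this order differed by 0.31, 0.31 and 0.46 on the log2 scale. The SD between probe sets of 1 gene was 0.18 above the rule, and from 0.13 near Ctsk to 0.24 near Tcirg1. It describes single values, and a difference between 2 genes spreads more widely, so the order was not tested. Acp5 and Ctsk were known to be higher when they were chosen.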

How the data were processed

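RNA of DRGs from the tumor side and from the control side was hybridized by the authors to 1 GeneChip Rat Genome 230 2.0 array per side. The deposited values are signal intensities on a linear scale, which the authors had made with the default analysis of MAS 5.0 (listed as MAS5 by the submitters). What scaling was applied and the genome build are not given in the sources used here. Log2 ratios were computed from the deposited intensities without a pseudocount. Symbols came from the platform's probe table, in which 20826 probe sets have 1 symbol, 436 have several and 9780 have none, beside 57 control probe sets. Where a gene had several probe sets, the brightest by mean log2 signal stood for it. No test was possible, and the number of arrays limits the precision. The members, lists, motifs and alternatives were chosen with earlier results of these data known. The rule for naming took all members, any gene of the other osteoclast and the RANKL and M-CSF lists, and up to 4 genes of each further list with the largest ratios above the signal rule. Acp2, Ctsb, Ctsl, Ctss, Atp6v0a1, Cd68, Laptm5, Lyz2, Spp1, Sparc, Col1a2, Dmp1, Sost and Prph fall outside it and were chosen after their values were seen. The same holds for Ctsa, Ctsc, Ctsd, Mertk, Cd163, Itgam, Cx3cr1, Mmp8, Camp, Cxcr2, Lcn2, Myh1 and Pvalb. The SD between probe sets of 1 gene was pooled over genes with at least 2 probe sets, 2198 above the signal rule, or within a fold of 2 of a probe set's mean signal. Alternatives were quantile normalization, centring on the median, loess (span 0.3), adding 11.1 to each signal (their percentile 20), other filters and folds, the mean over probe sets, and leaving out probe sets open to cross-hybridisation. Scripts were tested on simulated data. Computation used pandas 2.3.3 and numpy 2.4.6 under Python 3.11.15, with loess from statsmodels 0.14.6.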

Additional observations from a re-analysis of the deposited data

How the results depend on the processing

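The medians of the osteoclast and macrophage genes and their difference moved by less than the SD between probe sets of 1 gene under each of the 8 alternatives run. The difference lay between 0.26 without a signal filter and 0.41 without probe sets open to cross-hybridisation. Acp5 and Ctsk, known to be higher when they were chosen, enter it in each of these settings. Of 41 values of single genes, 40 moved by less than that spread at their signal, and the exception was Tcirg1 with the mean over probe sets. Part of this was fixed in advance, since the mean over probe sets cannot change a gene with 1 probe set and centring takes 0.08 from each gene. Calcr counted as unmoved with the pseudocount, from 1.15 to 0.49, only because the spread at its signal was 1.40. The count of osteoclast genes at least 2 times higher, 1 as deposited, was 0 after quantile normalization, median-centring, loess or the pseudocount, 2 without a signal filter, 2 at a fold of 1.5 and 0 at a fold of 3. None was at least 2 times lower in any setting of this count. The count of all probe sets at least 2 times higher, 27 as deposited, was 17 after median-centring, 15 with the pseudocount, 7 where each signal had to reach its median, 2336 unfiltered, 4 when filtered at percentile 75, 221 at a fold of 1.5 and 6 at a fold of 3. The count of those at least 2 times lower, 24 as deposited, was 6 where each signal had to reach its median, 1913 unfiltered, 3 when filtered at percentile 75, 119 at a fold of 1.5 and 9 at a fold of 3. The split of higher against lower was 18 to 30 after quantile normalization, 17 to 33 after median-centring and 18 to 31 after loess. Filters and folds change counts by their construction. Calcr has no value without probe sets open to cross-hybridisation. Low signal limits Calcr, Tnfrsf11a and Clcn7. No paired analysis was possible because only 1 array was made per side.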
